A study of Danio rerio with 6 samples.

Results

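The genes of the respiratory chain and of ATP synthase were followed in injured zebrafish hearts after inhibition of gamma secretase. Members were taken by gene name: rows whose symbol starts with nduf, sdh, uqcr, cox followed by 4 to 8, atp5, cyc1, cycs or mt-, ignoring case. The rule found 109 of the 14211 gene IDs in the table, 96 encoded in the nucleus and 13 in the mitochondrial genome. Of 120 zebrafish reference names of protein-coding genes that fit the rule, 83 were found, so the members need not cover whole complexes. The nuclear members are 36 subunits of complex I, 4 of complex II, 8 of complex III, 1 cytochrome c gene, 17 genes of complex IV, 17 of ATP synthase (complex V), 2 inhibitors of ATP synthase and 11 assembly factors. The 13 mitochondrial members are 7 genes of complex I, 1 of complex III, 3 of complex IV and 2 of complex V.

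The 6 libraries came from adult fish of the AB strain, and every heart, those of the controls included, had been cryoinjured. In 3 libraries the fish had received RO, a gamma secretase inhibitor known here only by that short name, and in 3 its DMSO carrier alone, injected into the peritoneum 24 h and 48 h after injury. The ventricle apex was collected at 72 h. Each library pools the apices of 3 hearts, so single hearts were not told apart. DMSO replicates are numbered 1, 2 and 3 and RO replicates 2, 3 and 4. Uninjured hearts were not analysed here.

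The respiratory chain sits in the inner mitochondrial membrane. Complexes I and II pass electrons from NADH and succinate to coenzyme Q, complex III passes them to cytochrome c and complex IV to oxygen. Complexes I, III and IV pump protons, and ATP synthase uses the proton gradient to make ATP. Complex II is wholly nuclear, while the other complexes combine nuclear subunits with subunits made from mitochondrial DNA. Heart muscle is rich in mitochondria and depends on this pathway for contraction.

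Levels are given as the deposited values, which are reads of a gene divided by 1 factor per library. The values of a library sum to between 971801 (DMSO replicate 1) and 1036454 (DMSO replicate 2), so they are not scaled to a common total. Scaling the recovered reads anew with the TMM method of edgeR, which also sets 1 factor per library, gave the same 147 genes called by limma. The libraries hold 3306018 to 4463303 recovered reads. Markers of heart muscle were present throughout: 21 of 29 symbols on the cardiomyocyte list were matched, to 24 gene IDs, and no ID was at 0 in any library. In these tissue samples, fewer cells of a type and less RNA per cell cannot be told apart. Nothing in the labels says that the pooled hearts of a library were handled apart from those of another, so the p-values measure the spread between these libraries.

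No member of the respiratory chain passed the test between RO and DMSO. Of 109 members, 0 had an adjusted p below 0.05 in limma, against 1.03% of all genes tested (147 of 14211; 0.647% higher and 0.387% lower), and the lowest adjusted p of a member was 0.315. At an unadjusted p below 0.05 there were 3 members, NDUFA2, SDHB and NDUFAF6, or 2.75% of the members, against 13.4% of all genes. The edgeR quasi-likelihood test and DESeq2 on recovered reads also called 0 members, with 3 and 0 at an unadjusted p below 0.05.

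The values still leaned to one side. On the log2 scale, 87 of 109 members lay lower in RO, or 79.8%, against 51.6% of all genes. The median log2 fold change was -0.079 over the members and -0.010 over all genes tested. It was -0.081 for the nuclear members and -0.074 for the mitochondrial ones. Groups that did not overlap were found for 7 members, 6 lower and 1 higher in RO. That is 6.42% of the members, against 18.7% of all genes (9.35% lower and 9.32% higher). Most members are highly expressed. Of the 95 members with a mean value of at least 50, 80% lay lower in RO, against 43.8% of the 2800 genes at that level. The medians were -0.074 and 0.033. Groups did not overlap for 5.26% and 24.6%. In limma 2.11% and 20.1% had an unadjusted p below 0.05, and 0 and 70 passed.

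The intervals bound the size of the differences. For 97 of 109 members the 95% interval of the fold change lay within 1.5-fold either way, and for 107 within 2-fold. Over all 14211 genes these counts were 5790 and 11132. Among genes with a mean value of at least 50 they were 2124 and 2656 of 2800 genes, and 91 and 95 of 95 members. The 2 members outside 2-fold are ndufv3 and the assembly factor gene NDUFAF8, which rest on few reads. The accessory complex I subunit gene ndufv3 stood at 10.2, 0 and 8.04 in DMSO replicates 1, 2 and 3, and at 7.54, 16.4 and 10.7 in RO replicates 2, 3 and 4, which came from 0 to 75 reads. NDUFAF8 ranged from 1.03 to 3.65.

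**Figure D1:**
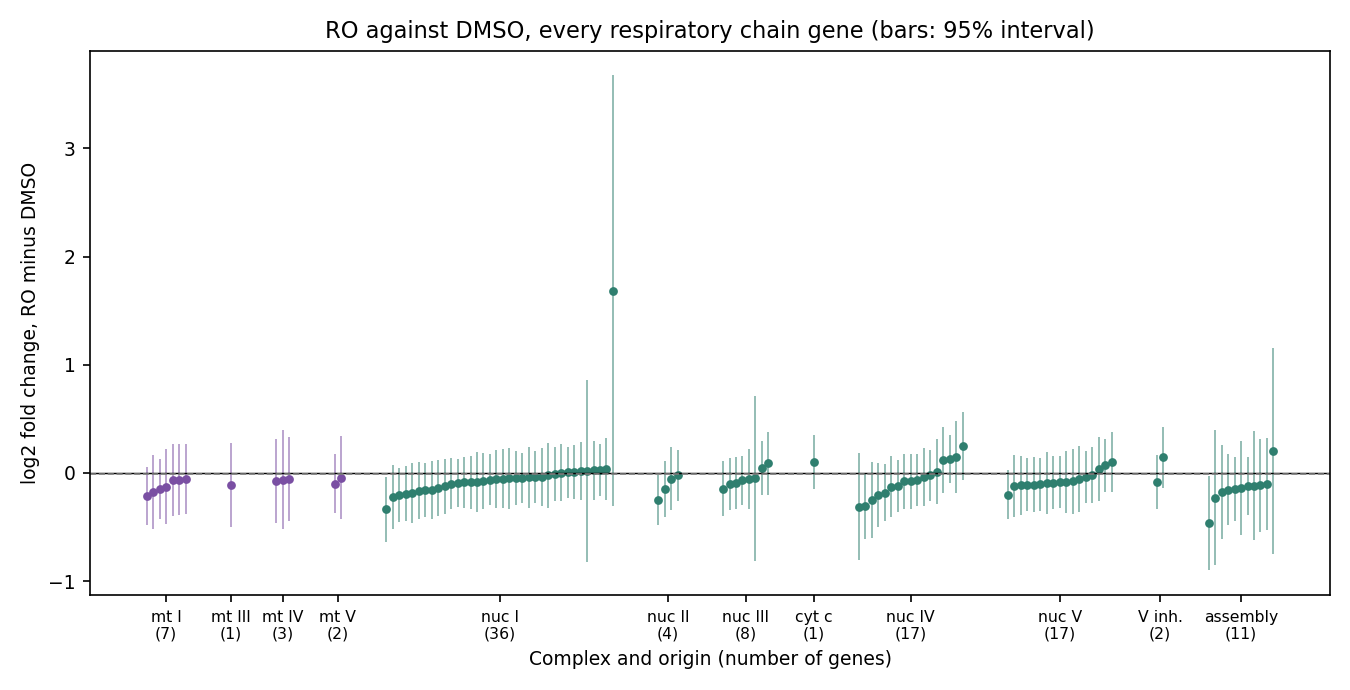
Log2 fold change (RO minus DMSO) of each of the 109 members, grouped by complex and by mitochondrial (mt, purple) or nuclear (green) origin; points are estimates and bars 95% intervals from limma with 3 libraries per group, and the dashed line marks the median of all genes (-0.010). Most points lie slightly below 0 with bars that cross it, and the point above 1 is ndufv3.

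Libraries of the same group differed as much as the groups did. For the 13 mitochondrial members, the median deviation from the 6-library mean on the log2 scale was -0.086, 0.19 and 0.039 in DMSO replicates 1, 2 and 3, and 0.0095, -0.15 and 0.033 in RO replicates 2, 3 and 4. The same median over nuclear members was -0.079, 0.12 and 0.072 in DMSO and -0.014, -0.11 and 0.0073 in RO. DMSO replicate 1 thus lay low with RO replicate 3, and the groups overlap. Of 109 members, 56 were highest in DMSO replicate 2, and 46 were lowest in RO replicate 3 and 33 in DMSO replicate 1. Over all 14211 genes these counts were 2473, 2039 and 2078.

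The lean toward lower values in RO rests in part on DMSO replicate 2 and RO replicate 3. Without DMSO replicate 2 the medians were -0.036 for nuclear and -0.0090 for mitochondrial members, and 72 of 109 members lay below 0. Without RO replicate 3 they were -0.040 and -0.017, with 73 below 0. Without DMSO replicate 1 they were -0.14 and -0.16, with 97 below 0. Without RO replicate 4 the mitochondrial median was -0.13, and without RO replicate 2 it was -0.12. Without DMSO replicate 3 the nuclear median was -0.054.

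**Figure D2:**
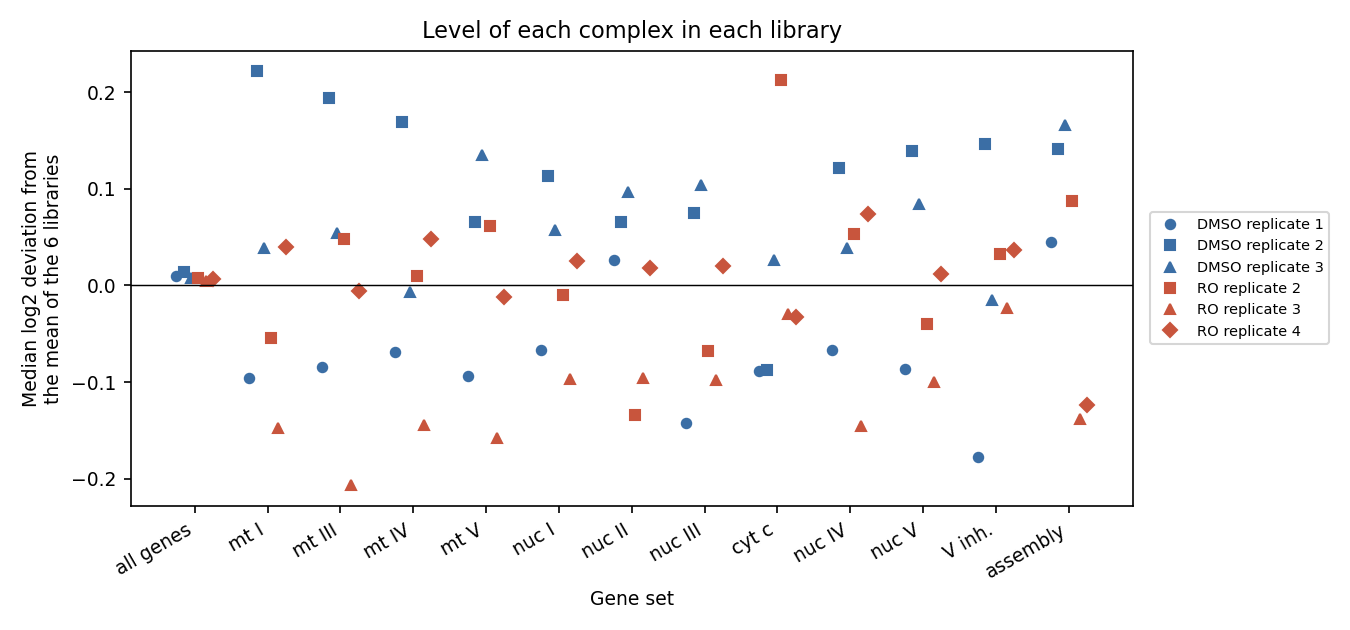
Median deviation of each gene set from the mean of the 6 libraries (y axis, log2) in each library, for all genes and for each complex by origin; blue marks DMSO, red marks RO, and the marker shape gives the replicate number. All genes sit near 0, while most complexes are high in DMSO replicate 2 and low in DMSO replicate 1 and RO replicate 3.

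Mitochondrial transcripts are made as long polycistronic precursors and cut into mRNAs, some of which carry 2 reading frames. The 13 mitochondrial members together held 10.8%, 12.2% and 11.5% of the deposited signal in DMSO replicates 1, 2 and 3, against 10.9%, 10.2% and 11.3% in RO replicates 2, 3 and 4. The mean share was 11.5% ± 0.678 in DMSO and 10.8% ± 0.565 in RO (SD, n = 3 each). This difference of -0.663 percentage points is smaller than the SD of the DMSO libraries and larger than that of the RO libraries. The nuclear members held 2.88% ± 0.136 in DMSO and 2.71% ± 0.0791 in RO. Their difference, -0.175 points, is larger than either SD, but the groups overlap (2.73% to 2.98% in DMSO and 2.64% to 2.80% in RO). The summed signal of mitochondrial over nuclear members was 3.96, 4.14 and 3.86 in DMSO and 4.07, 3.87 and 4.06 in RO, so both origins kept much the same proportion in every library.

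All 13 mitochondrial members had a log2 fold change below 0, from -0.22 to -0.045. With quantile normalization 2 of them, MT-CO3 and MT-ATP6, lay above 0, and 8 and 10 of 13 lay below 0 without DMSO replicate 2 and without RO replicate 3. None had groups that did not overlap, and the lowest adjusted p was 0.496.

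For complex I the mitochondrial gene with the lowest log2 fold change was mt-nd4l, a membrane subunit of the proton pump. Its values were 711, 783 and 863 in DMSO and 637, 644 and 747 in RO (log2 fold change -0.22, 95% interval -0.48 to 0.050, adjusted p = 0.496). RO replicate 4 lay above DMSO replicate 1. MT-ND4, read from the same mRNA as mt-nd4l in vertebrates, stood at 6084, 7722 and 6676 in DMSO and 6384, 5696 and 6610 in RO (-0.13). MT-ND5 stood at 4105, 5200 and 5171 against 3961, 4150 and 4650 (-0.18), again with DMSO replicate 1 among the RO values. MT-ND3 stood at 1080 ± 115 in DMSO against 971.5 ± 88.5 in RO (-0.15), MT-ND1 at 5191 ± 511 against 4981 ± 349 (-0.057), and MT-ND2 at 4244 ± 507 against 4055 ± 343 (-0.062). MT-ND6, the only one of these genes on the light strand, ranged from 1758 to 2533 in DMSO and from 1837 to 2077 in RO (-0.064). No source used here gives the use of strand in counting, and its reads and those of the opposite strand cannot be told apart.

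Beyond complex I, MT-CO1, the catalytic subunit of complex IV, had values of 30518, 35990 and 31844 in DMSO and 30643, 28960 and 34600 in RO (-0.063, 95% interval -0.52 to 0.40). The groups overlap, with RO replicate 3 alone below and DMSO replicate 2 alone above the values of the other group. MT-CO2 and MT-CO3, the other core subunits, had log2 fold changes of -0.056 and -0.074. MT-CYB, the cytochrome b of complex III, stood at 12565, 15236 and 13823 against 13772, 11541 and 13264 (-0.11, 95% interval -0.50 to 0.28). For ATP synthase, MT-ATP6 ranged from 11949 to 13965 in DMSO and from 11607 to 14033 in RO (-0.045). The gene mt-atp8 ranged from 1291 to 1546 and from 1216 to 1363 (-0.098). Their reading frames overlap on 1 mRNA, so reads of the overlap can be split between them.

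**Figure D3:**
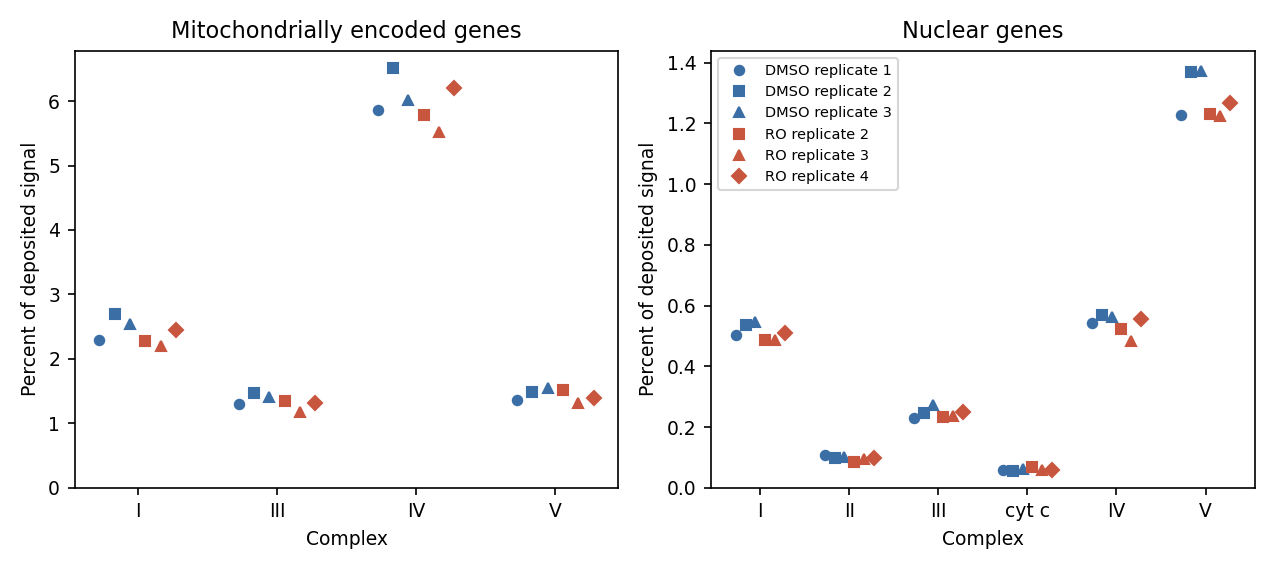
Percent of the deposited signal held by each complex (y axis, from 0) in each library, for mitochondrially encoded genes (left) and nuclear genes (right); blue marks DMSO, red marks RO, and the marker shape gives the replicate number. In most complexes the points of both groups overlap; in nuclear complex II the 3 RO points (0.0851% to 0.0971%) sit just below the 3 DMSO points (0.0978% to 0.108%).

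Among 36 nuclear subunits of complex I, 27 lay below 0 and 9 above, with a median of -0.055. The lowest log2 fold change was that of NDUFA2 (ENSDARG00000021984), an accessory subunit of the peripheral arm. It stood at 55.9, 65.6 and 66.7 in DMSO and 57.3, 43.8 and 47.9 in RO (-0.34, 95% interval -0.64 to -0.034, adjusted p = 0.315). RO replicate 2 lay above DMSO replicate 1. NDUFS1, the largest iron-sulfur subunit, stood at 513, 602 and 579 against 449, 493 and 529 (-0.20, adjusted p = 0.499). NDUFV1, the subunit that binds NADH, stood at 400, 394 and 372 against 358, 362 and 371 (-0.096, 95% interval -0.32 to 0.12). Its groups do not overlap, by a narrow margin. NDUFS8, another iron-sulfur subunit, stood at 294 ± 21.3 against 276 ± 20.9 (-0.087). NDUFS6 and NDUFB1, named because their groups do not overlap, had log2 fold changes of -0.19 and -0.22 (adjusted p = 0.533 and 0.525).

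Complex II, which links the citric acid cycle to the chain, had all 4 subunits below 0, with a median of -0.10. SDHB (ENSDARG00000075768), the iron-sulfur subunit, stood at 295, 291 and 291 in DMSO and 234, 237 and 268 in RO. The DMSO values lie close together and all 3 RO values lie below them (log2 fold change -0.25, 95% interval -0.48 to -0.021, adjusted p = 0.324). SDHA, the flavoprotein that oxidizes succinate, stood at 527, 476 and 468 against 388, 461 and 479 (-0.15, adjusted p = 0.649), with overlapping groups. The membrane anchors SDHC and SDHD stood at 140, 150 and 160 against 141, 148 and 152 (-0.023) and at 91.8 ± 7.10 against 89.0 ± 13.4 (-0.052). Both lay above 0 in some fits with 1 library left out, SDHC without DMSO replicate 3 (0.024) or RO replicate 2 (0.0076) and SDHD without RO replicate 3 (0.029). The summed value of complex II was 0.903 times the DMSO mean in RO, the lowest ratio among the nuclear complexes, which otherwise ran from 0.937 to 0.961.

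In complex III 6 of 8 nuclear subunits lay below 0, with a median of -0.060. CYC1, the cytochrome c1 that hands electrons to cytochrome c, stood at 562, 557 and 565 in DMSO and 528, 516 and 565 in RO (-0.066, 95% interval -0.29 to 0.16). UQCRB, a small structural subunit, stood at 352 ± 32.8 against 318 ± 23.8 (-0.14), and UQCRC1, a core subunit, at 563 ± 81.6 against 539 ± 13.3 (-0.054). The cytochrome c gene cycsb had the opposite sign, at 559, 560 and 605 against 689, 582 and 581 (0.10, 95% interval -0.15 to 0.35), where RO replicate 2 alone lay above DMSO.

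UQCRFS1 (ENSDARG00000007745), the Rieske iron-sulfur subunit, stood out by its spread and was singled out after its values were seen. It stood at 78.0, 100 and 175 in DMSO and 84.1, 75.3 and 195 in RO. DMSO replicate 3 and RO replicate 4 were high, on average 2.19 times the mean of the other libraries, and the group means were 118 and 118 (log2 fold change -0.051, 95% interval -0.81 to 0.71). These values rest on 301 to 800 reads per library. Its within-group SD was 0.67 on the log2 scale, against 0.048 to 0.18 for the other nuclear complex III genes. Of 2799 other genes with a mean value of at least 50, 23 had a larger within-group SD (0.822%), and their median was 0.15.

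**Figure D4:**
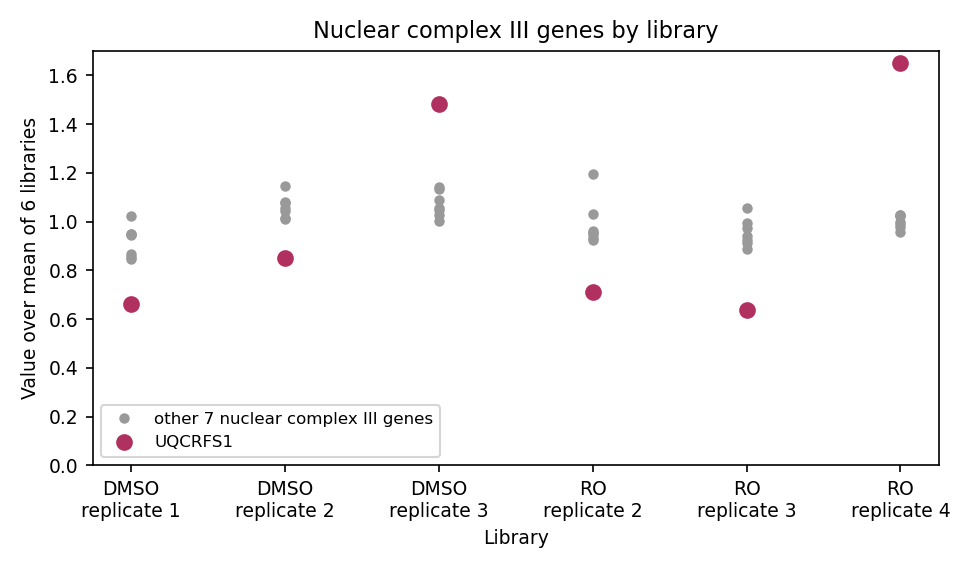
Value of each of the 8 nuclear complex III genes divided by its mean over the 6 libraries (y axis, from 0), by library; UQCRFS1 is drawn in large red points and the other 7 genes in grey. UQCRFS1 is high in DMSO replicate 3 and RO replicate 4 and low in the other libraries, where the grey points stay near 1.

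In complex IV 12 of 17 nuclear genes lay below 0, with a median of -0.076 and a range from -0.31 to 0.25. Several of its nuclear subunits exist as paralogs, and in mouse Cox7a1 and Cox8b are the heart and skeletal muscle forms and Cox7a2 and Cox8a the widely expressed forms. The gene cox7a1 (ENSDARG00000069464) stood at 269, 289 and 286 in DMSO and 203, 204 and 285 in RO. RO replicates 2 and 3 lay below the DMSO libraries and RO replicate 4 among them (log2 fold change -0.30, 95% interval -0.61 to 0.0017, adjusted p = 0.377). COX7A2 stood at 76.6, 81.0 and 85.1 against 114, 81.0 and 77.6 (0.15, adjusted p = 0.738), with RO replicate 2 alone above DMSO. The gene cox8b stood at 358, 441 and 397 against 354, 324 and 422 (-0.13), and cox8a at 152, 174 and 133 against 192, 159 and 148 (0.12).

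Another pair of IDs share the COX6A1 symbol, and the files do not say which of them is a muscle form. COX6A1 (ENSDARG00000054588) stood at 596, 736 and 673 against 519, 546 and 683 (-0.20, adjusted p = 0.581). The other copy, cox6a1 (ENSDARG00000022438), stood at 103, 102 and 92.9 against 146, 112 and 99.5 (0.25, 95% interval -0.070 to 0.56, adjusted p = 0.513). It had the highest log2 fold change among members with a mean value of at least 10.

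Ratios of such copies within a library, computed after the values were seen and not tested, serve to compare libraries and not the levels of the copies, since the values are not per length. The value of cox7a1 over COX7A2 was 3.51, 3.57 and 3.36 in DMSO and 1.78, 2.52 and 3.67 in RO. For cox8b over cox8a the ratio was 2.36, 2.53 and 2.98 against 1.85, 2.03 and 2.86. For COX6A1 over cox6a1 it was 5.81, 7.20 and 7.25 against 3.56, 4.87 and 6.86. In each of these 3 pairs RO replicates 2 and 3 lay below all DMSO libraries and RO replicate 4 within or above their range. The same order was seen for the COX5B copies, for atp5mc3b over ATP5MC3 and for atp5if1b over atp5if1a, so it was not particular to these pairs. It was not seen for COX4I1 over cox4i1l or for cox6b2 over cox6b1. None of the 8 pairs of copies compared had groups that did not overlap. The SD of the ratio was larger in RO for cox7a1 over COX7A2, cox8b over cox8a and COX6A1 over cox6a1. It was smaller in RO for the COX5B copies (0.185 against 0.229) and for atp5mc3b over ATP5MC3 (0.239 against 0.312). The wider spread in RO was thus not shared by all pairs.

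**Figure D5:**
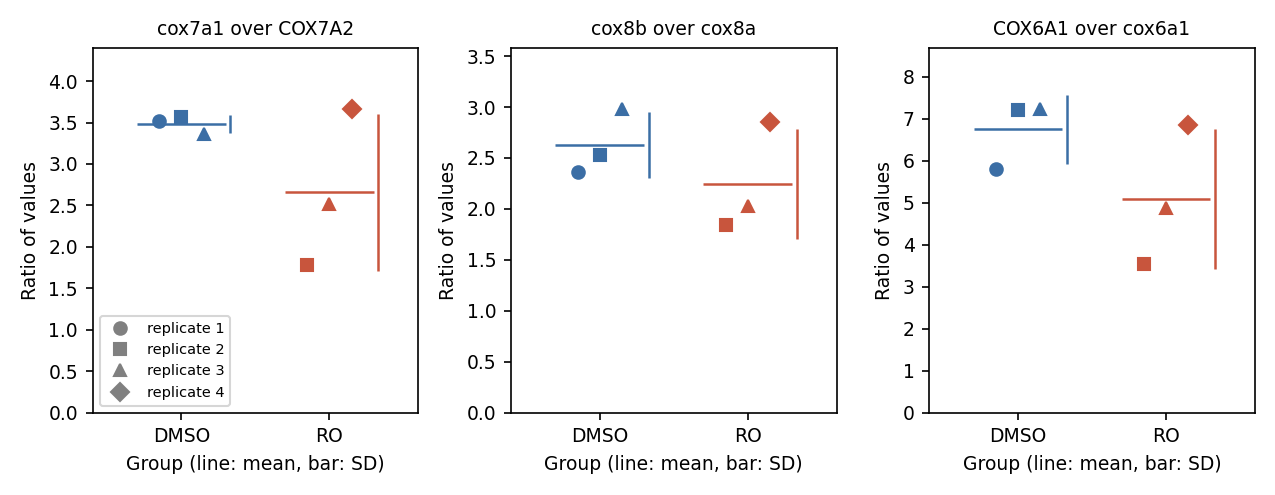
Ratio of the values of both copies within each library (y axis, from 0) for cox7a1 over COX7A2, cox8b over cox8a and COX6A1 over cox6a1; points are libraries with the replicate number as shape, lines are group means and bars 1 SD (n = 3). RO replicates 2 and 3 sit below the DMSO points in each panel and RO replicate 4 near or above them.

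Summed markers of heart muscle were also lowest in RO replicates 2 and 3: 83671, 94704 and 92488 in DMSO against 73600, 81084 and 92351 in RO replicates 2, 3 and 4. On that list 17 of 24 IDs lay below 0 with a median of -0.12. The myosin heavy chain gene MYH6 (ENSDARG00000079564) was the 1 ID that passed (limma, log2 fold change 0.67, adjusted p = 0.0454). That call was lost without any 1 library other than RO replicate 2 (adjusted p 0.0394 to 0.177). The other ID of this symbol, ENSDARG00000090637, varied widely, at 9.72, 60.4 and 3.27 in DMSO and 44.4, 1.31 and 107 in RO (limma, 0.63, adjusted p = 0.887). Summed macrophage markers (11 IDs, median 0.23) were highest in RO replicate 2, at 1448. The other RO libraries stood at 1097 and 1096, and DMSO at 850 to 975. In limma and edgeR 0 of these IDs passed, with 3 at an unadjusted p below 0.05, and 1, CTSB, passed in DESeq2. Much of the higher sum came from CTSB, at 274, 324 and 402 in DMSO and 683, 470 and 431 in RO. Of the 11 IDs 2 lay below 0, each an MFAP4 copy (-0.22 and -0.029). The other MFAP4 copies lay at 0.37 and 0.16, and marco lay at 0.061. Summed endothelial markers (11 IDs, median 0.18) were 854 to 1070 in DMSO and 1392 to 1540 in RO, and flt1, plvapb and klf2b passed, all higher, with log2 fold changes of 0.80, 0.75 and 1.70. Without DMSO replicate 2 none of these 3 passed, and flt1 and plvapb were also lost without RO replicate 3 or RO replicate 4, flt1 without DMSO replicate 3 or RO replicate 2 and plvapb without DMSO replicate 1. The higher sum came mostly from klf2a (175 ± 75.0 to 358 ± 25.2) and klf2b (117 ± 54.1 to 356 ± 49.4), transcription factor genes that respond to blood flow. Of the 11 IDs 3 lay below 0, TIE1 (-0.28, groups not overlapping), cdh5 (-0.13) and tek (-0.043). Summed fibroblast markers (7 IDs, median -0.082) were 5396 to 6929 in DMSO and 4677 to 5549 in RO, and 5 of 7 lay below 0. The collagen genes col1a1a (-0.57) and COL1A2 (-0.58) had groups that do not overlap and passed in DESeq2 but not in limma (adjusted p = 0.164 and 0.108). LUM (-0.60) and the FN1 copies (-0.077 and -0.082) also lay below 0. The 2 IDs above 0 were POSTN (0.54, overlapping groups) and DCN (0.035). On the skeletal muscle list (3 IDs) the actin gene ACTC1 passed (limma, adjusted p = 0.0139). Its values were 718 ± 122 in RO against 357 ± 58.9 in DMSO. The call was lost without DMSO replicate 1 or DMSO replicate 2. ACTC1 was matched to the list symbol actc1b only by a shortened name, so whether it is a skeletal muscle form is not known here. The other 2 IDs lay below 0, and ckmb among them is also on the cardiomyocyte list. Erythrocyte and neutrophil markers (4 and 3 IDs) had 0 passing in limma, edgeR and DESeq2, and in limma 0 and 1 at an unadjusted p below 0.05. No ID of these lists was at 0 in any library. The part of cell content in the values of the respiratory chain was not tested.

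None of the other complex IV genes passed, and their log2 fold changes ran from -0.31 (COX4I2) to 0.13. COX4I1, the widely expressed form of subunit 4, stood at 784 ± 71.6 against 743 ± 42.2 (-0.076). Its relative cox4i1l stood at 461, 489 and 473 against 393, 314 and 512 (-0.25, adjusted p = 0.553), with RO replicate 4 above and the other RO libraries below DMSO. COX4I2, the form that rises in low oxygen in mammals, was low throughout, at 10.9, 16.3 and 13.7 against 8.10, 11.8 and 12.9 (-0.31, 95% interval -0.81 to 0.18). The COX5B copy ENSDARG00000015978 was the 1 member with groups that do not overlap and RO higher: 125, 129 and 127 against 138, 139 and 140 (0.13, 95% interval -0.093 to 0.35, adjusted p = 0.649). The other COX5B copy (ENSDARG00000068738) had a log2 fold change of -0.079. The genes cox5aa, cox6b1 and cox6b2 had log2 fold changes of -0.064, 0.013 and -0.022, and that of cox6b1 fell below 0 with quantile normalization, array weights and other settings. COX7A2L, a factor that joins complexes III and IV into supercomplexes in mammals, stood at 120 ± 7.19 against 110 ± 7.59 (-0.12). The gene ndufa4b, named for complex I but assigned to complex IV in mammals, stood at 677, 668 and 620 against 638, 502 and 599 (-0.18, adjusted p = 0.577).

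In ATP synthase 14 of 17 nuclear subunits lay below 0, with a median of -0.086. ATP5F1B, the catalytic beta subunit, stood at 2940, 3439 and 3323 in DMSO and 3028, 2976 and 3058 in RO (-0.095, 95% interval -0.38 to 0.19). ATP5F1A, the alpha subunit, stood at 2195, 2645 and 2460 against 2226, 2226 and 2418 (-0.085). The ring subunit gene atp5mc3b stood at 1094, 1462 and 1295 against 1179, 1139 and 1193 (-0.12). For these 3 genes every RO library lies between the lowest and the highest DMSO library. ATP5F1D, the delta subunit of the rotor stalk, had groups that do not overlap, at 355, 363 and 330 against 311, 288 and 312 (-0.20, 95% interval -0.43 to 0.024, adjusted p = 0.444).

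The inhibitors of ATP synthase, which block ATP hydrolysis when the proton gradient is lost, split in sign. The gene atp5if1a stood at 121, 163 and 139 against 165, 156 and 144 (0.14, adjusted p = 0.693), and atp5if1b at 227, 265 and 249 against 225, 218 and 257 (-0.083, adjusted p = 0.811).

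Of 11 assembly factors 10 lay below 0, with a median of -0.14. Their summed value in RO was 0.897 times the DMSO mean, a lower ratio than that of complex II. Their share of the signal did not overlap between groups (0.0216% to 0.0232% in DMSO and 0.0197% to 0.0201% in RO). NDUFAF6 (ENSDARG00000053652), a complex I assembly factor, had the lowest log2 fold change of any member: 12.4, 13.2 and 14.3 in DMSO against 7.54, 10.1 and 11.2 in RO (-0.46, 95% interval -0.90 to -0.028, adjusted p = 0.337). All 3 RO values lie below the DMSO values.

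Other genes of the pathway were counted from lists that do not overlap the members. Of 36 further assembly factors of the complexes 0 passed, 21 lay below 0 and the median was -0.041. Of 65 mitochondrial ribosomal protein genes 0 passed, 28 lay below 0 and the median was 0.0099. The highest log2 fold change among these 65 was 3.08, also the highest of all genes tested, and 1 gene of the list was at 0 in some library. Of 19 genes of mitochondrial DNA maintenance, transcription and RNA stability 0 passed, 10 lay below 0 and the median was -0.0077. In limma their counts at an unadjusted p below 0.05 were 0, 2 and 1. Of 17 regulators of nuclear respiratory genes 0 passed, 2 at an unadjusted p below 0.05, 14 lay below 0 and the median was -0.20. For ADP/ATP, phosphate and anion exchange across the mitochondrial membranes 5 of 6 genes lay below 0, 0 passed, 0 had an unadjusted p below 0.05 and the median was -0.074. By edgeR and DESeq2 on recovered reads 0 genes of these 5 lists passed as well, with 7 and 2 at an unadjusted p below 0.05.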

How the data were processed

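RNA of 6 libraries was measured by sequencing of polyA RNA, per the labels' protocols. The authors deposited 1 table with a scaled signal per gene and library. Build Zv9 and the tools RSEM 1.2.3, Bowtie2 2.0.6, edgeR, cutadapt 1.6.1 and CASAVA 1.8 come from the submitters' processing notes, which give them no roles here. For the annotation and the use of strand, nothing was given in the sources used here. All values (100%) are whole reads times 1 step per library within 0.01 read, so reads were recovered. Every gene of the table had a value of at least 1 in 3 or more libraries.

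Symbols were matched for 11589 of 14211 IDs from a table of gene IDs and symbols. No genome, coordinates or sequences were used. Near-identical copies can share reads.

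Log2(value + 0.5) was tested for RO minus DMSO with limma 3.58.1 (trend, R 4.3.3) on all genes, with Benjamini-Hochberg adjustment at 0.05. Fold changes are on this scale, where the added 0.5 shrinks those of low genes. A value of 0 in 1 library can instead enlarge them. For ndufv3 the fold on this scale is 3.22, with group means of 6.08 in DMSO and 11.6 in RO. On data simulated for this comparison with 14211 genes, 60% of 2-fold and 4% of 1.5-fold changes were called. The simulation gave every gene the same dispersion, so these rates need not hold for the members. Their median within-group SD on the log2 scale was 0.13, against 0.23 for all genes. At a mean value of at least 50 it was 0.127 for members and 0.150 for all genes, so the gap was smaller among genes of like level. Alternatives were other pseudocounts, minima, scalings and limma settings, a replicate block, leaving out libraries, and the count tests edgeR 4.0.16 (156 genes called) and DESeq2 1.42.0 (240) on recovered reads.

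The members and lists were chosen with earlier results of these data known. Genes named are the mitochondrial members, complex II, the 3 highest values per nuclear complex, the 4 highest and 4 lowest log2 fold changes at a mean of at least 10, and isoforms, plus those said to be chosen otherwise.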

Additional observations from a re-analysis of the deposited data

How the results depend on the processing

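The count of 0 members was the same in every alternative run except the replicate block. The nuclear median stayed between -0.11 and -0.077 and the mitochondrial one between -0.10 and -0.070 outside the block, the left-out libraries and the count without assembly factors (nuclear median -0.066). Over the left-out libraries they ran from -0.14 to -0.036 and from -0.16 to -0.0090. Leaving out 1 library gave 22 to 105 genes called over all genes, against 147, and a lowest adjusted p among members of 0.0941 (cox7a1, without RO replicate 4). The count over all genes was 1 without the limma trend, 240 with DESeq2 and 318 at an adjusted p of 0.1. The difference in mitochondrial share ran from -1.01 to -0.327 points over the left-out libraries.

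Numbers 2 and 3 are shared by both groups with no statement that they pair libraries. Same-numbered deviations correlated at 0.116 and 0.0913 over genes, others at -0.116 to 0.0433. With the replicate number as a block, 405 genes and 2 members were called, cox7a1 (log2 fold change -0.50, adjusted p = 0.0452) and ndufv3 (2.497, adjusted p = 0.0447). The nuclear median was -0.17 and the mitochondrial one -0.19. In the block fit 99 of 109 members lay below 0, against 87 without it. At an adjusted p below 0.05 (limma) calls rose from 0 to 2 of 109 members and from 147 to 405 of 14211 genes. At an unadjusted p below 0.05 (limma) there were 20 members, against 3 without the block. The count over all genes at that threshold was not taken for the block fit, so the 20 members have no background beside them. That fit rests on both shared numbers alone.

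Turns of sign were followed for 47 named members only. Of these, quantile normalization turned MT-CO3 (0.070), MT-ATP6 (0.057) and cox6b1 (-0.029). Rescaling without mitochondrial rows (-0.0065), array weights (-0.065) and the block (-0.015) also turned cox6b1. Members not named turned as well. Of 96 nuclear members 74 lay below 0 in the main fit. The count was 83 with quantile normalization, 79 without mitochondrial rows, 78 with array weights and 86 with the block. Over the left-out libraries the log2 fold changes of 12 of the 47 named members crossed 0: COX7A2 -0.027 to 0.25, MT-ATP6 -0.12 to 0.023, MT-CO1 -0.13 to 0.0065, MT-CO2 -0.11 to 0.031, MT-ND1 -0.12 to 0.017, MT-ND2 -0.13 to 0.033, MT-ND6 -0.18 to 0.080, SDHC -0.072 to 0.024, SDHD -0.17 to 0.029, UQCRC1 -0.18 to 0.026, cox6b1 -0.084 to 0.15 and cox6b2 -0.079 to 0.021. Other members crossed 0 too: the nuclear members below 0 ran from 63 (without RO replicate 3) to 84 (without DMSO replicate 1). The cause was not tested.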

Other observations

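Coenzyme Q, the lipid that carries electrons between the complexes, has its own synthesis genes. They were counted here, together with the binding protein gene COQ10B, from a list of 16 symbols. Of these 11 were matched, to 12 IDs. No ID passed in limma or edgeR, but in limma 5 had an unadjusted p below 0.05, 3 lower and 2 higher in RO. That is 41.7% of the list, against 13.4% of all genes. Groups did not overlap for 33.3% of the list, against 18.7% of all genes. The median log2 fold change was -0.035. COQ10B (ENSDARG00000056141), which codes for a coenzyme Q binding protein, stood at 83.4, 89.3 and 131 in DMSO and 187, 151 and 190 in RO (0.82, 95% interval 0.44 to 1.19, adjusted p = 0.0507). The COQ8A copy ENSDARG00000020123, an atypical kinase of the synthesis complex, stood at 164, 154 and 164 against 76.8, 118 and 115 (-0.66, 95% interval -1.01 to -0.32, adjusted p = 0.0828). For both genes the groups do not overlap, and both passed in DESeq2, as the 2 IDs of the list that did. PDSS1, which makes the isoprenoid tail, stood at 20.7 ± 1.38 against 27.8 ± 3.48 (0.41, adjusted p = 0.265), and COQ9, a lipid-binding member of the complex, at 115 ± 14.6 against 93.0 ± 8.02 (-0.30, adjusted p = 0.339). The other COQ8A copy, ENSDARG00000032426, stood at 8.13 ± 0.522 against 4.58 ± 0.484 (-0.77, adjusted p = 0.150).

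Among regulators of nuclear respiratory genes, those with an unadjusted p below 0.05 were perm1b, a muscle regulator of mitochondrial genes in mammals, and ESRRA, an orphan nuclear receptor. The values of perm1b were 93.1, 110 and 94.1 in DMSO and 58.7, 67.2 and 83.2 in RO (-0.52, 95% interval -0.83 to -0.20, adjusted p = 0.136 in limma). Those of ESRRA were 17.5, 22.7 and 28.3 against 31.0, 34.4 and 29.7 (0.49, adjusted p = 0.262). Neither pair of groups overlaps, and their signs are opposite. These genes were named after their values were seen.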
